A study of Saccharomyces cerevisiae with 3 samples.

Results

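The aldehyde dehydrogenase genes ALD2, ALD3, ALD4, ALD5 and ALD6 of baker's yeast were followed on 3 arrays. All 5 genes were found through the gene symbols of the array platform, among 5539 genes with a symbol, and each had 2 spots. Every array compared, on the same slide, Cy3-labelled total RNA from yap1 deletion cells and Cy5-labelled total RNA from wild-type cells. The cells of either strain had spent 1 h in 0.2 mM As(III), the trivalent form of arsenic also called arsenite, so no unexposed cells entered the comparison. The sources used here name no further allele or marker of either strain, and whether separate cultures stand behind the 3 arrays is not stated. The p-values thus cover the array-to-array spread alone, part or all of which may be technical, and precision is limited by having 3 arrays.

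Aldehyde dehydrogenases oxidise aldehydes to acids and pass the electrons to NAD+ or NADP+. In yeast growing on glucose, pyruvate is decarboxylated to acetaldehyde, most of which is reduced to ethanol, while a part is oxidised to acetate by these enzymes and then activated to acetyl-CoA. Ald6 is the main cytosolic acetaldehyde dehydrogenase on glucose, prefers NADP+ and is a source of cytosolic NADPH, the reductant of thioredoxin and glutathione systems. Ald4 and Ald5 lie in the mitochondrion. Ald4 is the major form there and uses NAD+ or NADP+, and Ald5 is a minor form that prefers NADP+. Ald2 and Ald3 are cytosolic, use NAD+, are known as stress-induced forms, and supply beta-alanine for pantothenate and coenzyme A.

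Values are deposited log ratios of the channels of an array minus that array's median over genes, which was −2.11, −2.30 and −1.59 on replicates 1, 2 and 3. Neither the base of the logarithm nor the direction of the ratio is given in the sources used here. Genes are therefore placed on the high or low side of the median, without naming the strain that held more transcript and without a fold change. YAP1, the deleted gene, lay at −1.43, −0.22 and −0.74, below the median on every array, and its average of −0.80 ± 0.61 (SD, n = 3) passed as low (limma adjusted p = 0.0323). This call ended without replicate 1 (−0.48, adjusted p = 0.226), without replicate 3 (−0.83, adjusted p = 0.197), with the second spot alone (−0.32, adjusted p = 0.452) and with the trend described below removed (−0.29, adjusted p = 0.472), and was not used to set a direction. The dyes were never swapped, so dye effects and strain differences cannot be told apart for any gene. In RNA of whole cultures, fewer cells holding a given transcript and less of that transcript per cell cannot be told apart either.

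The family did not move as a block. ALD6 lay far on the high side, ALD5 lay moderately on the high side, ALD3 lay on the low side, and ALD4 and ALD2 lay near the median. In limma, a linear model that shares information on the spread across genes, 3 of the 5 genes passed the threshold of 0.05 after Benjamini-Hochberg adjustment over all genes, ALD6 and ALD5 being high and ALD3 low. The background was large: 28.5% of all genes passed, of which the high ones were 16.0% and the low ones 12.5% of all genes. The same 3 ALD genes kept their sign on all 3 arrays, as did 58.9% of all genes (29.7% always above and 29.2% always below the median). With 5 genes, a count of 3 is no result about the family by itself.

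**Figure D1:**
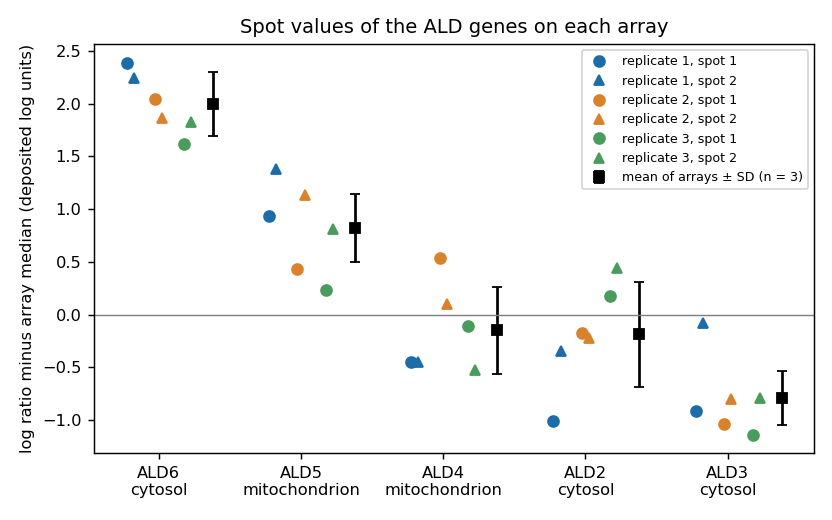
Log ratio minus the array median (vertical axis, deposited log units) for the 2 spots of each ALD gene on the 3 arrays, with the mean of the arrays ± SD (n = 3) as black squares. All 6 spot values of ALD6 lie at 1.61 or above, and all 6 of ALD3 lie below the median.

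ALD6 (YPL061W), the gene of the main cytosolic, NADP+-linked enzyme, had centred log ratios of 2.32, 1.95 and 1.72 on replicates 1, 2 and 3. All 3 values lay above every value of the other ALD genes, of which the highest was 1.16. It averaged 2.00 ± 0.30 (SD, n = 3; 95% interval 1.496 to 2.498; limma adjusted p = 2.06e-05). This placed ALD6 at rank 90 of 5539 genes counted from the high side, and at the 99.3rd, 97.2nd and 97.3rd percentile of the single arrays. Of the 89 genes with a higher mean, 75 encode cytosolic ribosomal proteins by their symbols. The spots of ALD6 agreed closely: they differed by 0.14, 0.17 and 0.21 on the 3 arrays. Before centring, ALD6 stood at 0.21, −0.35 and 0.13, so it lay near 0 while 98.4, 98.9 and 96.9% of all genes were below 0. It was 1 of 71 genes above 0 as deposited on replicates 1 and 3 alike. The call of ALD6 thus rests on the array median as the reference, and against 0 the mean was −0.0030 with a limma adjusted p of 0.993.

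ALD5 (YER073W), for the minor mitochondrial enzyme, had values of 1.16, 0.79 and 0.52. All lay above the median, at the 90.7th, 80.1st and 81.4th percentile of the arrays. On average it lay at 0.82 ± 0.32 (SD, n = 3; 95% interval 0.32 to 1.32; limma adjusted p = 0.0179). Its second spot was higher than its first on every array, by 0.45, 0.70 and 0.57. The first spot alone gave 0.52, with an adjusted p of 0.194, and the second alone gave 1.05, with an adjusted p of 0.0145. The ALD5 call also ended when any array was left out, with means of 0.65 without replicate 1, 0.84 without replicate 2 and 0.97 without replicate 3, and limma adjusted p-values of 0.0876, 0.0629 and 0.0896.

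ALD4 (YOR374W), for the major mitochondrial enzyme, lay at −0.45, 0.32 and −0.32, below the median on replicates 1 and 3 and above it on replicate 2. It averaged −0.15 ± 0.41 (SD, n = 3; 95% interval −0.67 to 0.37; limma adjusted p = 0.673). This interval leaves room for a displacement to either side. The spots of ALD4 were nearly equal on replicate 1, where they differed by 0.0059, and differed by 0.44 and 0.41 on replicates 2 and 3. They lay on the same side of the median on each array.

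ALD2 (YMR170C) and ALD3 (YMR169C) are next to each other in the RefSeq gene table of assembly R64 and are close paralogs, so the spots of either gene may take up RNA of the other. This was not tested, and their single values are uncertain to that extent. ALD3 lay at −0.50, −0.92 and −0.97, below the median on all arrays with both of its spots. Over the arrays ALD3 averaged −0.79 ± 0.26 (SD, n = 3; 95% interval −1.29 to −0.30; limma adjusted p = 0.0199). ALD2 lay at −0.68, −0.20 and 0.31, and thus crossed the median. ALD2 averaged −0.19 ± 0.50 (SD, n = 3; 95% interval −0.72 to 0.34; limma adjusted p = 0.599). Of the 5 genes, ALD2 had the largest SD between arrays, which exceeded that of 72.9% of all genes, while ALD3 had the smallest.

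The low-side call of ALD3 ended in several alternatives. Without replicate 2 the ALD3 mean was −0.73 with a limma adjusted p of 0.118, and without replicate 3 it was −0.71 with an adjusted p of 0.153. By its second spot alone it was −0.62 with an adjusted p of 0.130. The mean of ALD3 stood at the 75th percentile of 192 pairs of low spots that carry no gene symbol, and so inside their range. ALD2 stood at the 96.4th and ALD4 at the 97.4th percentile of these pairs, while ALD5 and ALD6 lay above all of them. The low spots were chosen because their positions lay below the array median on these same arrays. High places among them were thus partly set by that choice and are a description only.

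The order of the means was ALD6, ALD5, ALD4, ALD2 and ALD3. With 3 arrays an exact two-sided sign-flip test cannot go below a p of 0.25, so the 10 differences between pairs of genes are given as values. In 8 of the 10 pairs the difference had the same sign on all 3 arrays, but the pairs share genes and the order was read from these values, so this count is a description.

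**Figure D2:**
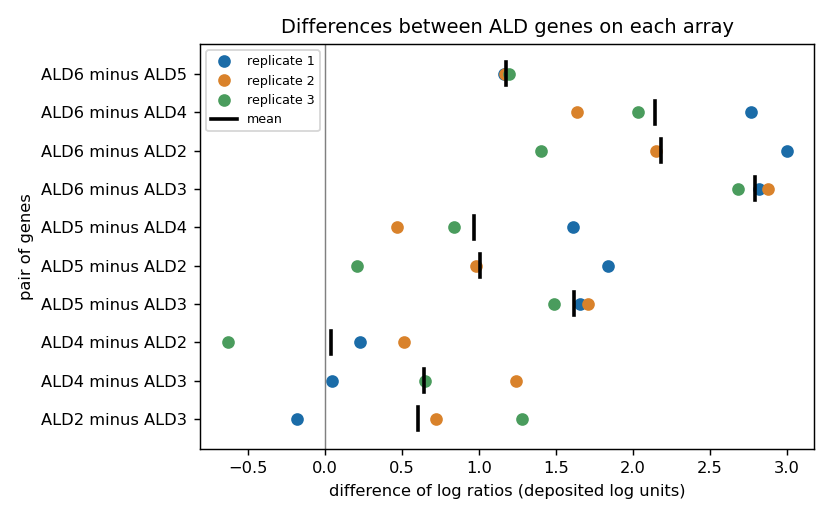
Difference of centred log ratios between pairs of ALD genes (horizontal axis, deposited log units), with a point for each array and a bar at the mean. The ALD6 minus ALD5 points lie together near 1.18, while those of ALD4 minus ALD2 and ALD2 minus ALD3 fall on either side of 0.

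ALD6 exceeded ALD5, its neighbour in the order, by 1.16, 1.17 and 1.20, a mean of 1.18 ± 0.019 (SD, n = 3). This SD was the smallest of the 10 pairs and covers the spread between arrays alone. The gap was wider by the first spots, with ALD6 at 2.00 and ALD5 at 0.52. It was narrower by the second spots, with ALD6 at 1.92 and ALD5 at 1.05. Both genes had their highest value on replicate 1 and their lowest on replicate 3, and the SD of their difference was smaller than that of either gene. ALD5 exceeded ALD4 by 1.61, 0.47 and 0.84, a mean of 0.97 ± 0.58 (SD, n = 3). ALD4 and ALD2 could not be ordered, with differences of 0.23, 0.52 and −0.63. ALD2 and ALD3 could not be ordered either. ALD2 minus ALD3 was −0.18 on replicate 1, 0.72 on replicate 2 and 1.28 on replicate 3, with a mean of 0.61 ± 0.74 (SD, n = 3). The paralogs were thus close on replicate 1 and apart on replicate 3. The widest mean gap was that of ALD6 over ALD3, both cytosolic, at 2.82, 2.87 and 2.68, although on replicate 1 ALD2 lay farther below ALD6, by 2.998.

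The place of the enzyme in the cell did not order the genes. The cytosolic members ALD2, ALD3 and ALD6 had a mean of 0.38, 0.28 and 0.35 on the 3 arrays, and the mitochondrial members ALD4 and ALD5 had a mean of 0.35, 0.55 and 0.10. Cytosolic minus mitochondrial was 0.027, −0.27 and 0.25, with a mean of 0.0022 ± 0.26 (SD, n = 3). The near-zero mean came from cytosolic genes at opposite ends of the family. Without ALD6, which was left out after its values were seen, the difference was −0.94, −1.11 and −0.43, with a mean of −0.83 ± 0.35 (SD, n = 3). Without ALD3 it was 0.57 ± 0.31 (SD, n = 3), above 0 on all arrays. Without ALD2 it was 0.27 ± 0.30 (SD, n = 3), above 0 on 2 arrays. No p is given for these means, since the members are not replicates of a compartment.

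**Figure D3:**
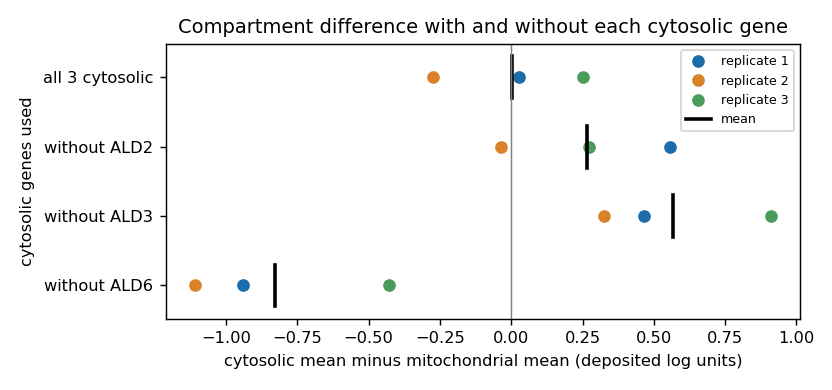
Mean of the cytosolic minus mean of the mitochondrial ALD genes (horizontal axis, deposited log units) for all cytosolic genes and with each left out, a point for each array and a bar at the mean. With all genes the points straddle 0, and without ALD6 all 3 lie below it, between −1.11 and −0.43.

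Across all genes the ratio moved with the scatter between repeated spots of a gene. With the genes ordered by this scatter and divided into 10 groups of like size, the group of smallest scatter had a median ratio of 0.60 and that of largest scatter −0.52. ALD6 had a spot scatter of 0.126, at the 8.43rd percentile, so it belonged to the group with the smallest scatter and lay 1.40 above that group's median. ALD5 and ALD3 had spot scatters of 0.414 and 0.379 and fell in the same group, with a median of −0.09. ALD5 lay 0.91 above that median and ALD3 0.70 below it. ALD2 and ALD4 lay 0.22 and 0.29 below the medians of their own groups. When the trend was removed, ALD6 lay at 1.49 with a limma adjusted p of 0.00256, ALD5 at 0.94 with an adjusted p of 0.0206, and ALD3 at −0.74 with an adjusted p of 0.0413.

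**Figure D4:**
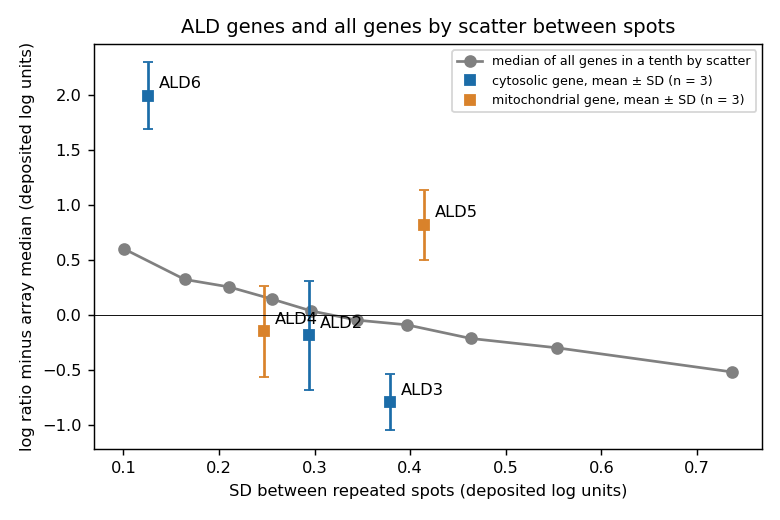
Mean log ratio minus the array median (vertical axis, deposited log units) against the SD between repeated spots (horizontal axis) for the ALD genes, with SD bars over arrays (n = 3). The grey line joins the medians of all genes in 10 groups by scatter, from 0.60 to −0.52. ALD6 and ALD5 lie above the line and ALD3 below it.

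The genes whose values were nearest to those of each ALD gene were found by the root mean square distance over the 3 arrays. For ALD3 the nearest of all genes was ACS1, for an acetyl-CoA synthetase, at −0.47, −0.88 and −0.96 and a distance of 0.032, followed by CNL1 at 0.083. For ALD6 they were the ribosomal protein genes RPL4B (0.102) and RPL33B (0.125). For ALD5 they were GPI14 (0.021) and IMO32 (0.031), for ALD4 PIG1 (0.052) and COX15 (0.053), and for ALD2 DIG1 (0.067) and GYP1 (0.070). Within a distance of 0.2 lay 15 genes for ALD6, 53 for ALD3, 70 for ALD5, 74 for ALD2 and 116 for ALD4. Over 3 arrays such closeness is a description of level, and genes near the median have many such neighbours.

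The counts of each list below stand beside 16.0% of all genes passing as high and 12.5% as low, and no list was tested against these shares. Of 5 genes for pyruvate decarboxylase, which makes acetaldehyde, and acetyl-CoA synthetase, which uses acetate, 3 passed as high and 1 as low. ACS2, for the synthetase form used on glucose, lay at 2.11, 2.15 and 1.29, averaging 1.85 ± 0.48 (SD, n = 3; limma adjusted p = 6.54e-05). ACS1, for the form repressed by glucose, averaged −0.77 ± 0.26 (SD, n = 3; limma adjusted p = 0.0236). The decarboxylase genes PDC1 and PDC5 lay at 0.83 ± 0.44 and 0.84 ± 0.50 (SD, n = 3 each). The median of the list was 0.83, against −0.02 over all genes. PDC1 and PDC5 had spot scatters of 0.112 and 0.101, below that of ALD6. They thus fell in the group of smallest scatter, whose median ratio was 0.60. With the trend with spot scatter removed the list median was 0.28, with 1 high and 0 low calls. ACS2 passed with any array left out, while the list had 1 high and 0 low calls without replicate 2 and also without replicate 3. PDC1 and PDC5 are close paralogs, as are several alcohol dehydrogenase genes, so the same uncertainty applies to them as to ALD2 and ALD3.

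Of 10 alcohol dehydrogenase genes, whose products reduce aldehydes or oxidise alcohols, 4 passed as high and 0 as low, with a list median of 0.27. At an unadjusted p under 0.05 limma gave 4 high and 1 low. Of all genes at least 16.0% were high and 12.5% low at that threshold, the shares that passed after adjustment. The genes that passed as high were ADH5 (1.60 ± 0.49), ADH3 (1.54 ± 0.41), ADH1 (1.49 ± 0.28) and BDH2 (0.82 ± 0.49; SD, n = 3 each). ADH1, ADH3 and ADH5 passed whichever array was left out, and BDH2 in 1 of these 3 cases. ADH2, named after its values were seen, lay at 1.95, −1.40 and −0.71 (SD 1.77, n = 3; limma adjusted p = 0.939). Without replicate 1 the list had 5 high calls and 1 low call. With the trend with spot scatter removed it had 3 high and 0 low, and a median of 0.26. ADH1 encodes the main enzyme of ethanol formation and ADH3 the mitochondrial form. Of 4 genes of acetate handling, 3 passed as low, beside 12.5% of all genes. These were ACH1 (−1.02 ± 0.46), for a mitochondrial CoA transferase, and ATO2 (−0.79 ± 0.32) and ADY2 (−0.78 ± 0.77; SD, n = 3 each), for transporters of acetate or ammonium. The list median was −0.78, and the low calls numbered 1 without replicate 1, 2 without replicate 2 and 0 without replicate 3. They also numbered 0 with the first spot alone and with the trend with spot scatter removed, where the list median was −0.54, and ACH1 had a spot scatter of 0.842. Of 5 genes of the pyruvate dehydrogenase complex, the mitochondrial route from pyruvate to acetyl-CoA, only PDB1 passed, at 0.79 ± 0.34 (SD, n = 3), and the list median was 0.26. PDB1 did not pass with any array left out. With the trend removed this list had 0 high and 0 low calls and a median of −0.04. LAT1, for the acetyltransferase of the complex and named after its values were seen, lay at 0.52, −1.84 and −1.49 (adjusted p = 0.0565), and was called low at −1.66 without replicate 1. It was not called without replicate 2, without replicate 3 or with either spot alone. With the trend removed LAT1 lay at −0.38 (limma adjusted p = 0.543), and its spot scatter was 0.835.

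Of 8 genes for other enzymes that make NADPH, 3 passed as high and 1 as low, with a list median of 0.54. The shares of all genes were 16.0% and 12.5%. At an unadjusted p under 0.05 limma gave 4 high and 2 low, where the shares of all genes were at least 16.0% and 12.5%. The mitochondrial isocitrate dehydrogenase gene IDP1 lay at 1.49 ± 0.54, the malic enzyme gene MAE1 at 1.07 ± 0.22, and the phosphogluconate dehydrogenase gene GND1 at 0.68 ± 0.24 (SD, n = 3 each). IDP3, for the peroxisomal isocitrate dehydrogenase, lay at −1.001 ± 0.499 (SD, n = 3). All 4 had limma adjusted p-values between 0.000608 (IDP1) and 0.0393 (GND1). IDP1 passed with any array left out, MAE1 in 2 of these 3 cases, IDP3 in 1 and GND1 in 0. IDP3 had a spot scatter of 0.748, and the list had 0 low calls with scattered genes left out. The list kept 1 high call and 0 low calls without replicate 3. With the trend with spot scatter removed it had 1 high and 1 low, and a median of 0.16. Its low calls numbered 2 with block medians and also with robust moderation. ZWF1, named after its values were seen, lay below the median on every array, at −0.86, −0.04 and −1.15. Its mean was −0.68 ± 0.57 (SD, n = 3; limma adjusted p = 0.0583), on the other side from GND1. ALD6 lay above each of the 8 genes of this list in its mean.

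The remaining lists held few calls, beside 16.0% of all genes passing as high and 12.5% as low. Of 5 other enzymes of the aldehyde dehydrogenase superfamily only PRO2, a proline synthesis gene, passed, at 0.92 ± 0.53 (SD, n = 3), and the list median was 0.03. PRO2 did not pass with any array left out. Of 13 genes of polyamine, pantothenate and coenzyme A synthesis, which hold the steps before and after Ald2 and Ald3, 2 passed as high, SPE3 for spermidine synthase at 1.43 ± 0.37 and CAB5 for the last step to coenzyme A at 0.89 ± 0.75 (SD, n = 3 each), with a list median of 0.19. The high calls of this list numbered 1 without replicate 2 and 0 without replicate 3. CAB5 passed in 1 of the 3 cases with an array left out. Of 7 genes for regulators of carbon or stress genes 0 passed in limma. At an unadjusted p under 0.05 there were 1 high and 1 low, where the shares of all genes were at least 16.0% and 12.5%. The outermost were CAT8 at −0.67 ± 0.47 (adjusted p = 0.0547) and STB5 at 0.57 ± 0.48 (SD, n = 3 each; adjusted p = 0.0956). Over all 57 genes of the 8 lists, 14 passed as high and 5 as low, beside a background of 16.0% and 12.5%. Without replicate 3 these counts were 5 and 0, and without replicate 2 they were 7 and 3. The calls over all genes fell as well, from 886 high and 695 low to 275 and 48 without replicate 3. Without replicate 2 they were 538 and 351. The losses of calls in single lists stand beside this loss over the whole table.

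**Figure D5:**
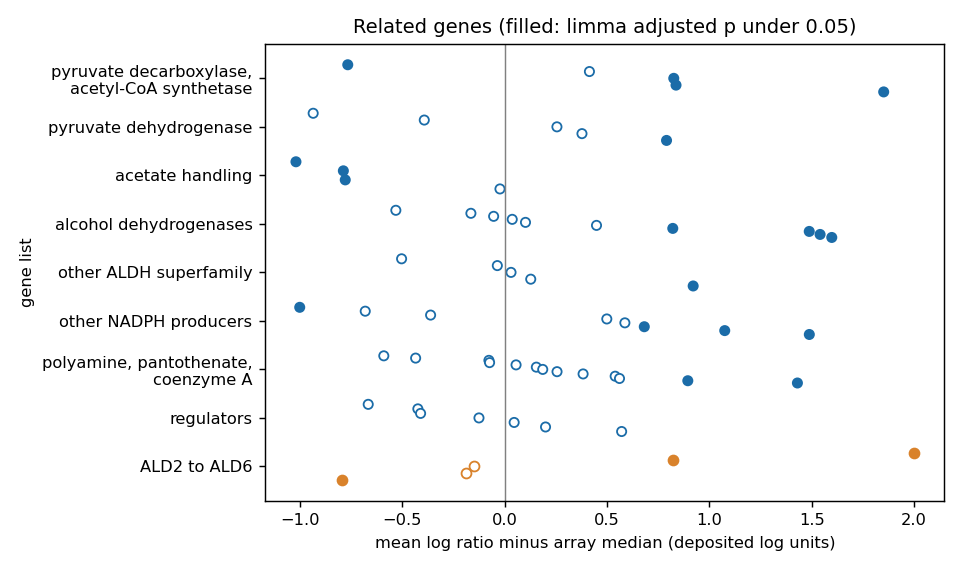
Mean log ratio minus the array median (horizontal axis, deposited log units) of the genes of each list, and of ALD2 to ALD6 at the bottom in orange. Filled points passed a limma adjusted p of 0.05. ALD6, at 2.00, lies farther to the high side than any of the 57 listed genes.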

How the data were processed

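For each spot of an array the authors deposited a log ratio, taken as log2 although its base is not given in the sources used here, and neither are its direction, the scanner software, the background correction or any normalization. Signal over background is unknown, since channel intensities were not used here. Of 13056 spots, 11138 had a single gene symbol in the platform annotation, 0 had several and 1918 had none. They covered 5539 genes, 5534 of them found in the RefSeq table of assembly R64.

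Spots of a gene were averaged and the median over genes was subtracted on each array. A two-sided limma test (version 3.58.1, R 4.3.3; lmFit, eBayes) set the average over the 3 arrays against 0. Its p-values were adjusted by Benjamini-Hochberg across all genes, with a threshold of 0.05. The fit was tested on simulated data. Alternatives covered centring, block medians (272 spots a block), the trend with spot scatter, array scale, single spots, scattered genes, robust moderation and each array left out. The members and gene lists were chosen with earlier results of these data known. From each list, up to 4 called genes with the largest absolute mean were named, or 2 where none was called, and 2 nearest genes for each member. LAT1, ADH2 and ZWF1 were named outside this rule, after their values were seen. The lists are described by counts and medians only. Promoter motifs and protein identity, planned at the outset, are not analysed here.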

Additional observations from a re-analysis of the deposited data

How the results depend on the processing

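Each array held both strains, so each log ratio was already a comparison within an array. The limma test took the ratios of the 3 arrays as a single group. ALD6 kept its call in all 10 alternatives centred on a median over genes (means of 1.49 to 2.14, highest limma adjusted p 0.0272, without replicate 3), and lost it only with values as deposited (−0.0030). ALD5 kept its call in 6 of these 10 and ALD3 in 7. ALD5 lost it with the first spot alone (0.52) and ALD3 with the second (−0.62). With an array left out, ALD5 ran from 0.65 to 0.97 and ALD3 from −0.94 to −0.71. ALD2 and ALD4 were called in none of the 10, with the lowest adjusted p at 0.329 and 0.338.

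The reference decided the side for most members. As deposited, ALD2 lay at −2.19, ALD4 at −2.15 and ALD5 at −1.18, all called low. Centred on the low spots without a gene symbol, ALD2 (0.78) and ALD4 (0.82) were called high, and ALD3 lay at 0.18, not called. These spots were chosen for lying low on these same arrays, so a move of genes to the high side against them was built in. The cause of this shift is the choice of reference, which moves all genes together. Cytosolic minus mitochondrial ran from −0.14 to 0.14 over the 8 alternatives that could move a difference within an array. In settings added after the data were seen it was 0.57 without ALD3 and −0.83 without ALD6. ALD3 minus ALD2 ran from −1.001 to −0.271 over the same 8.

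Over the whole table, 1581 genes were called. This became 5260 as deposited, 3984 against the low spots, 1027 with the trend removed, 1014 with the first spot alone, and 323 to 1443 with an array left out, fewest without replicate 3; 889 were called without replicate 2. The listed genes called high and low were 6 and 1 with the trend removed, 8 and 1 with the first spot, 8 and 4 with the second spot, 0 and 51 as deposited, and 42 and 0 against the low spots. The causes were not tested.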
